A study of Homo sapiens with 4 samples.

Results

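The EGF receptor and its ligands were examined as 7 genes, EGFR, EPGN, EREG, AREG, BTC, HBEGF and TGFA, chosen by name from GENCODE annotation of the hg19 genome among 20098 protein-coding genes. For each gene, every ATAC-seq peak in the gene or within 100 kb of its transcription start site (TSS) was listed, and the 4 ligand genes of 4q13 (EPGN, EREG, AREG and BTC) were treated as one locus. Overlapping peaks of the 4 libraries were merged, which gave 49 regions around these genes out of 60886 in all. Of these, 6 lay in the promoter of a member gene (1000 bp upstream to 500 bp downstream of the TSS), 3 in the promoter of another gene and 40 were distal.

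ATAC-seq maps accessible chromatin by inserting sequencing adapters into open DNA with the Tn5 transposase, and a peak is a place with more insertions than its surroundings. There were 2 libraries of parental MCF10A, a nontransformed and immortalized human mammary epithelial line, and 2 of the same line with the H-RAS Gv12 oncogene, called G12V cells. According to the study's methods, the HRAS G12V vector was delivered by lentiviral transduction together with a GFP vector, and transduced cells were selected with hygromycin, so that the G12V cells went through transduction and selection that the parental cells did not. All cells were grown in medium with 20 ng/ml EGF, cholera toxin, insulin, hydrocortisone and horse serum. The receptor was therefore under added ligand in every library.

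EGFR is the receptor tyrosine kinase bound by these ligands. The ligands are made as membrane-anchored precursors and are released by metalloproteases of the ADAM family, after which they can act on the cell that made them or on its neighbours. Ligand binding activates RAS through the adaptors GRB2 and SOS, and mammary epithelial cells in culture depend on EGF for growth. HRAS G12V is held in its active form, downstream of the receptor.

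The lists held between 12888 and 46673 peaks on the autosomes and X, and in both cell types replicate 2 had the larger list. The number of reads was unknown, so the size of the list stood in for depth. Each peak carries a score, 10 times the negative log10 of its p-value, and the score is given here as a percentile within its own list, where 100 is the best. The lowest listed score was 40 in every library, and a locus below it has no peak. Regions called in the 2 G12V libraries and in no MCF10A library were termed gained, those with the opposite pattern lost, and those called in all 4 shared. Promoters of 12 mammary epithelial marker genes had a peak for 3, 3, 0 and 2 genes in MCF10A replicate 1, MCF10A replicate 2, G12V replicate 1 and G12V replicate 2. Peaks were absent from all 4 libraries at the CDH1, EPCAM, GRHL2, KRT14, KRT18, KRT5 and TP63 promoters. With promoters of every annotated transcript the counts were 4, 6, 0 and 4 of 12. EPCAM, GRHL2 and KRT18 then had a peak in at least 1 library. Promoters of 9 marker genes of other cell types had 0, 1, 0 and 1, all of them at CD14, and those of 4 mesenchymal genes had 0, 3, 1 and 3. With every annotated transcript the other cell types had 1, 1, 0 and 2, at CD14 and, in G12V replicate 2, also at PTPRC. The mesenchymal genes then had 1, 3, 1 and 3. The cells were measured in bulk, so a locus open in fewer cells and a locus less open in every cell cannot be told apart, and the part of these markers in the results was not tested.

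The sequences below are those of the gained and lost regions, since the results turn on them, of the EGFR promoter for comparison with that of EREG, and of 3 intron regions of EREG and EGFR that hold motif matches. They are plus-strand GRCh37 reference bases, as 150 bp at the midpoint of the best-ranked peak, or for the EREG and EGFR promoters the bases before the TSS. Capitals mark matches to TATAAA in promoters and, elsewhere, to AP-1 (TGACTCA or TGAGTCA), TEAD (GGAATG, here on the other strand) or p53 motifs.
EREG promoter, gained, chr4:75230693-75230861: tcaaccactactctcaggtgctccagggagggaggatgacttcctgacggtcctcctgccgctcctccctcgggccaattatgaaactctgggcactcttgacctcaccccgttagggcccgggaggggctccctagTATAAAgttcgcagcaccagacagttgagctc
EREG intron 1, chr4:75240479-75240628: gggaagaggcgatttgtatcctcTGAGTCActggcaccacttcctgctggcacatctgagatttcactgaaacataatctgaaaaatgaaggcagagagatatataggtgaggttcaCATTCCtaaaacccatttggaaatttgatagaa
BTC intron 2, gained, chr4:75694476-75694625: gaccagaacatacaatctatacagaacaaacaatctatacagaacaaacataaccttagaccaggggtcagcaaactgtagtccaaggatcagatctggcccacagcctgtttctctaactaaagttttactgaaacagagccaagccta
EGFR promoter, chr7:55086460-55086709: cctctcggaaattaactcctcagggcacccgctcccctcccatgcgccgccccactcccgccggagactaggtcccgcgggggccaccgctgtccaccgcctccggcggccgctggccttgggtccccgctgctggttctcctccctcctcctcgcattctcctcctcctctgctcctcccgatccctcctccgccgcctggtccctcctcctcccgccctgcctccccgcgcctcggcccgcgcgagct
EGFR intron 1, gained, chr7:55124732-55124881: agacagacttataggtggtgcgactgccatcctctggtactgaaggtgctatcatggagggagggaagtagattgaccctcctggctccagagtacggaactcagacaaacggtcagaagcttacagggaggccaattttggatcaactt
EGFR intron 1, shared, chr7:55141809-55141958: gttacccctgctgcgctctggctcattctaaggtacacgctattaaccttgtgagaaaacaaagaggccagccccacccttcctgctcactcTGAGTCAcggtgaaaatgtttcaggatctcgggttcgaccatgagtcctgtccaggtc
EGFR intron 1, AP-1 and p53 matches, chr7:55177166-55177315: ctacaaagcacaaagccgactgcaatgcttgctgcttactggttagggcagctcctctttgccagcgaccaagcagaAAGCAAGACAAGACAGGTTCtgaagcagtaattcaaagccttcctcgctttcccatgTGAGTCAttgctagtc
Downstream of HBEGF, gained, chr5:139691748-139691897: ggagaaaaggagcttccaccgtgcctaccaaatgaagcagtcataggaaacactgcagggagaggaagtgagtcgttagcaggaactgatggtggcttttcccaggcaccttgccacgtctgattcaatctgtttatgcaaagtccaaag
Upstream of HBEGF, lost, chr5:139727957-139728106: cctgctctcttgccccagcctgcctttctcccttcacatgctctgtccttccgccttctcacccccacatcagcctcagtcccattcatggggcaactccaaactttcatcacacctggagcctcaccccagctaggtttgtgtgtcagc

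Of the 49 regions, 4 were gained, 1 was lost and 3 were shared. The gained share was 8.16% against 3.20% of all regions, the lost share 2.04% against 2.14%, and the shared share 6.12% against 8.36%. The gained regions were the EREG promoter, an intron of BTC, an intron of EGFR and a site downstream of HBEGF, and the lost region lay just upstream of HBEGF. TGFA had none of these classes. More regions, 25 of 49 or 51%, had a peak in a single library, against 56.4% of all regions, and 14 of the 25 were peaks of G12V replicate 2, the largest list. By gene, 6 of 7 members had at least 1 gained region in the window, against 16% of protein-coding genes, and 1 had a lost region, against 10%. The 6 genes do not stand for separate events, because EPGN, EREG and AREG reached this count through the single region at the EREG promoter.

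EREG (epiregulin), a ligand that binds both EGFR and ERBB4, was the member with a change at its promoter. The promoter region, chr4:75230693-75231132, spans the TSS, the coding part and 5′ UTR of exon 1 and the start of intron 1. It had no peak in either MCF10A library, a peak at percentile 24.9 (score 52.87) in G12V replicate 1 and a peak at percentile 32.6 (score 56.43) in G12V replicate 2. The groups did not overlap by presence, but both G12V peaks ranked in the lower part of their lists. Over the genome, 0.856% of protein-coding genes had a promoter peak in both G12V and neither MCF10A library, and 0.517% had the reverse. With the better-scoring 50% of each list, or with the 12888 best peaks of every library, the EREG promoter no longer had a peak in both G12V libraries and was not gained.

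Intron 1 of EREG held a further region, chr4:75240069-75240916, centred 9631 bp downstream of the TSS. Its percentile was 78.6 in MCF10A replicate 2, 33.4 in G12V replicate 1 and 77.1 in G12V replicate 2, and it had no peak in MCF10A replicate 1. The region was thus open in both cell types, and in the replicate 2 pair its ranks were close. The single 4q13 peak of MCF10A replicate 1 lay elsewhere in the same intron, 5887 bp from the TSS, at percentile 36.7, and no other library had it.

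BTC (betacellulin), which also binds EGFR and ERBB4, had a gained region in intron 2, chr4:75694210-75694892, centred 25182 bp downstream of its TSS. It had no peak in the MCF10A libraries and peaks at percentiles 49.1 and 62.7 in G12V replicates 1 and 2. These were the highest ranks among the gained regions of 4q13. The BTC promoter held 2 neighbouring regions, both with peaks in replicate 2 of each cell type alone. The region over exon 1 and intron 1 was at percentile 66.5 in MCF10A and 41.2 in G12V, and the one over the upstream side was at 48.8 in MCF10A and 69.1 in G12V. The promoter was therefore listed in both cell types, with the order of the ranks opposite in the 2 regions.

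EPGN (epigen) and AREG (amphiregulin) had no peak in the gene or its promoter in any library. For AREG this count has a limit that can be measured. The authors kept only reads that aligned to a single place, and AREG has a near-identical copy, AREGB, on the same chromosome arm in GRCh37. Of all 51-base words starting in AREG, 7.42% occur once in the genome, and 6.73% of those in its promoter. In AREGB the values were 7.30% and 6.86%, and it had no peak in any library either. The word length is the tag size set in peak calling, and words were matched exactly, without the mismatches an aligner may allow. For reads of this length most positions in AREG could not yield a uniquely aligned read, so the lists say little on whether AREG was accessible. In EPGN 97.5% of the words in the gene and 100% of those in the promoter occur once, and in the other member genes 95.6 to 98.8% and 100%. Counted by exact words, this limit within genes and promoters thus applies to AREG alone among the 7. Of the words within 100 kb of the TSS, 77.9% for EREG and 78.3% for AREG occur once, against 92.8 to 96.7% for the other 5 genes, so the region counts of the EREG and AREG windows are limited too.

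**Figure D1:**
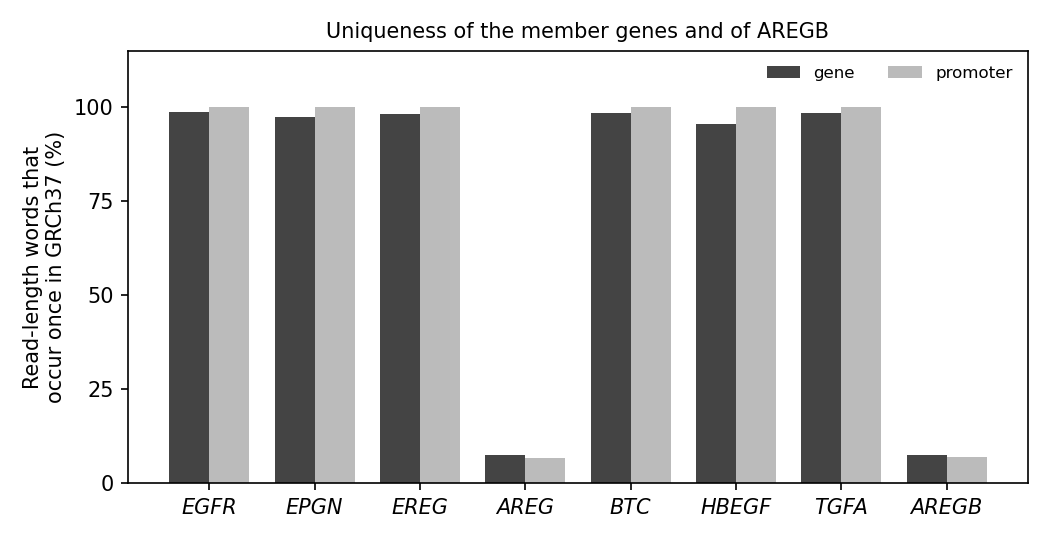
Share of 51-base words that occur once in GRCh37 (%), counted on both strands, in the gene (dark) and promoter (light) of each member and of AREGB. AREG and AREGB lie between 6.73 and 7.42%, and every other gene and promoter is at 95.6% or more.

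**Figure D2:**
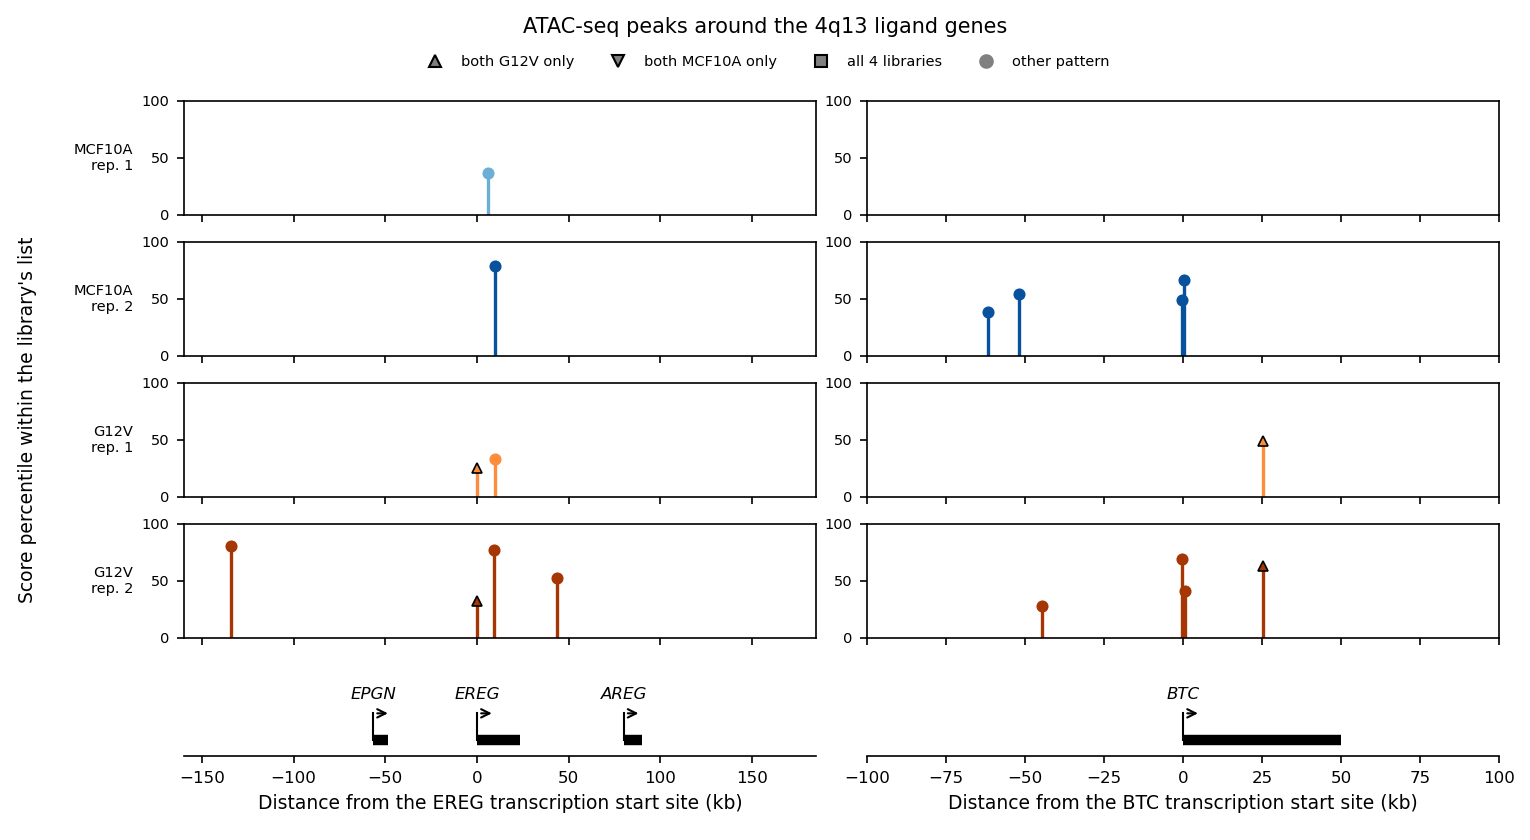
Peaks around EREG with EPGN and AREG (left) and around BTC (right) in the 4 libraries, by distance from the TSS in kb and score percentile within the library's list. Each stem is a peak, triangles mark regions with peaks in both G12V libraries alone, black bars are genes and arrows point in the direction of transcription. The EREG promoter peaks (percentiles 24.9 and 32.6) and the BTC intron 2 peaks (49.1 and 62.7) appear in the G12V rows alone, and nothing is listed over EPGN or AREG.

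The remaining regions of 4q13 had a peak in 1 library each. For G12V replicate 2 these were an intron of MTHFD2L beyond EPGN (percentile 80.6), a site between EREG and AREG (52.7) and a site upstream of BTC (27.8). For MCF10A replicate 2 they were 2 sites farther upstream of BTC (54.0 and 38.1). They have no second library of their cell type, and their class could not be set.

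EGFR itself had 15 regions, more than any ligand gene but HBEGF, and 10 of them lay in its long intron 1. The promoter region, chr7:55086371-55087154, over the TSS, exon 1 and the start of intron 1, was listed in MCF10A replicate 2 at percentile 49.9 and in G12V replicate 2 at 90.4, and was absent from either replicate 1. Its rank was higher in G12V in this single pair, which allows no test. The gained region, chr7:55124472-55125141, lay in intron 1, centred 38097 bp downstream of the TSS. It had no peak in MCF10A and percentiles of 3.48 and 46.3 in G12V replicates 1 and 2. The peak of G12V replicate 1 had a score of 42.18, just above the lowest score listed, so this was the gained region with the least support.

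A pair of EGFR regions were shared by all 4 libraries. In the intron 1 region chr7:55141409-55142332, 55161 bp from the TSS, the percentiles were 80.5 and 82.8 in MCF10A and 52.5 and 85.3 in G12V. In the region chr7:55253444-55254559, in intron 20 of EGFR and in an intron of the antisense transcript EGFR-AS1, they were 38.8 and 85.5 in MCF10A and 59.7 and 86.2 in G12V. The cell types overlapped in both in the full lists. A percentile depends on the length of its list, and the lists were of unequal length. With the 12888 best peaks of every library, 2 of the 3 shared member regions had both MCF10A percentiles above both G12V percentiles. The best-ranked EGFR region, chr7:55200193-55202046, also in intron 1, had percentiles of 87.5 and 99.1 in MCF10A and 95.4 in G12V replicate 2, with no peak in G12V replicate 1. G12V replicate 1 was the only one of the 4 libraries without a peak at this site, while MCF10A replicate 1, with the smaller list (12888 against 14042 peaks), had one.

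The other EGFR regions in 3 libraries lacked MCF10A replicate 1. One lay 33245 bp upstream of the TSS, with percentiles of 62.2 in MCF10A replicate 2, 28.6 in G12V replicate 1 and 88.4 in G12V replicate 2. The other lay in intron 1, 46280 bp downstream of the TSS, with percentiles of 0.135, 32.3 and 4.19 in the same order. With the 12888 best peaks of every library the upstream region became gained, since its MCF10A peak then fell below the limit, while the gained intron 1 region was no longer called.

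**Figure D3:**
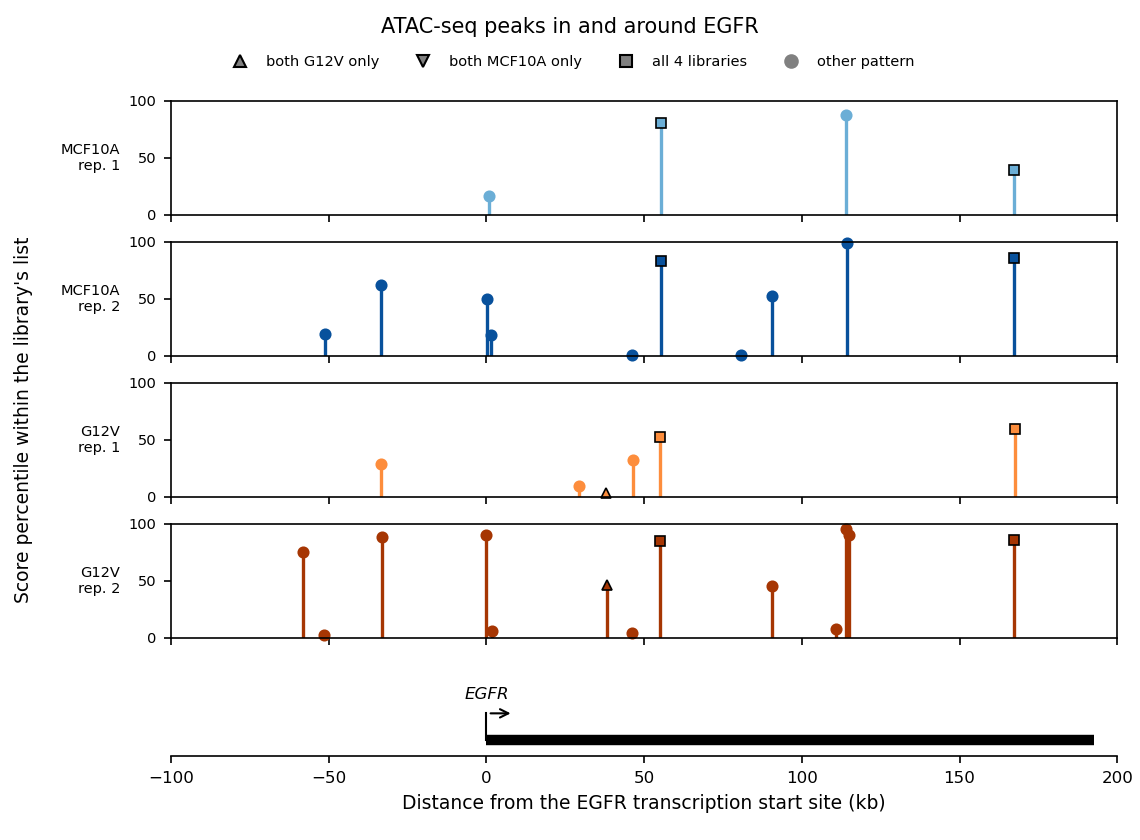
Peaks in EGFR and within 100 kb of its TSS in the 4 libraries, by distance from the TSS in kb and score percentile within the library's list. Squares mark regions with peaks in all 4 libraries, triangles the region with peaks in both G12V libraries alone and circles other patterns, and the black bar is the gene. The shared regions stand in every row, the intron 1 region at 114410 bp is missing from G12V replicate 1, and the gained intron 1 peak has percentiles of 3.48 and 46.3.

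HBEGF, a heparin-binding ligand of EGFR and ERBB4, had 18 regions in its window, the most of any member, and 8 of them were peaks of G12V replicate 2 alone. Its gained region, chr5:139691362-139692283, lay in intergenic sequence 34365 bp downstream of the TSS, beyond the end of the gene. This region was nearer to the promoter region of PFDN1, chr5:139682727-139683166, than to the HBEGF TSS. It had no peak in MCF10A and percentiles of 27.4 and 86.6 in G12V replicates 1 and 2. It was the one gained member region that was also called with the 12888 best peaks of every library, although not with the better-scoring 50% of each list.

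The lost region, chr5:139727874-139728240, lay 1869 bp upstream of the HBEGF TSS, outside the promoter limits, in exon 2 and intron 1 of the long non-coding gene ENSG00000253965. It was at percentile 57.0 in MCF10A replicate 1 and 1.30 in MCF10A replicate 2, with no peak in G12V. In the larger MCF10A list its score was 40.88, next to the lowest score listed, so 1 of its 2 peaks barely entered the list. Under both filters by score it was not called.

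The HBEGF promoter region, chr5:139725703-139726815, over exon 1 and its upstream side, had percentiles of 41.5 in MCF10A replicate 2, 8.01 in G12V replicate 1 and 59.8 in G12V replicate 2, and no peak in MCF10A replicate 1. It was listed in both cell types. The shared region of the window, chr5:139780236-139782361, was the promoter of ANKHD1, with percentiles of 99.5 and 99.8 in MCF10A and 96.1 and 99.8 in G12V. Promoters of PFDN1 and of ENSG00000253965 had a peak in 1 library each, MCF10A replicate 1 (percentile 21.7) and G12V replicate 2 (36.2). A further 6 regions lay in introns of PFDN1, among them 1 in 3 libraries with percentiles of 2.02 in MCF10A replicate 2, 40.4 in G12V replicate 1 and 19.3 in G12V replicate 2.

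TGFA (transforming growth factor alpha), a high-affinity EGFR ligand, had 5 regions and no peak in either replicate 1 library. Its promoter region, chr2:70780526-70781662, was at percentile 89.3 in MCF10A replicate 2 and 81.7 in G12V replicate 2. A region in intron 1, 29447 bp from the TSS, was at 6.42 in MCF10A replicate 2 and 78.4 in G12V replicate 2. The other 3 regions had a peak in 1 library each, with percentiles from 25.2 to 52.6. The TGFA promoter was thus listed in the replicate 2 library of both cell types, and no gain or loss could be called here, since either class needs a peak in a replicate 1 library.

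**Figure D4:**
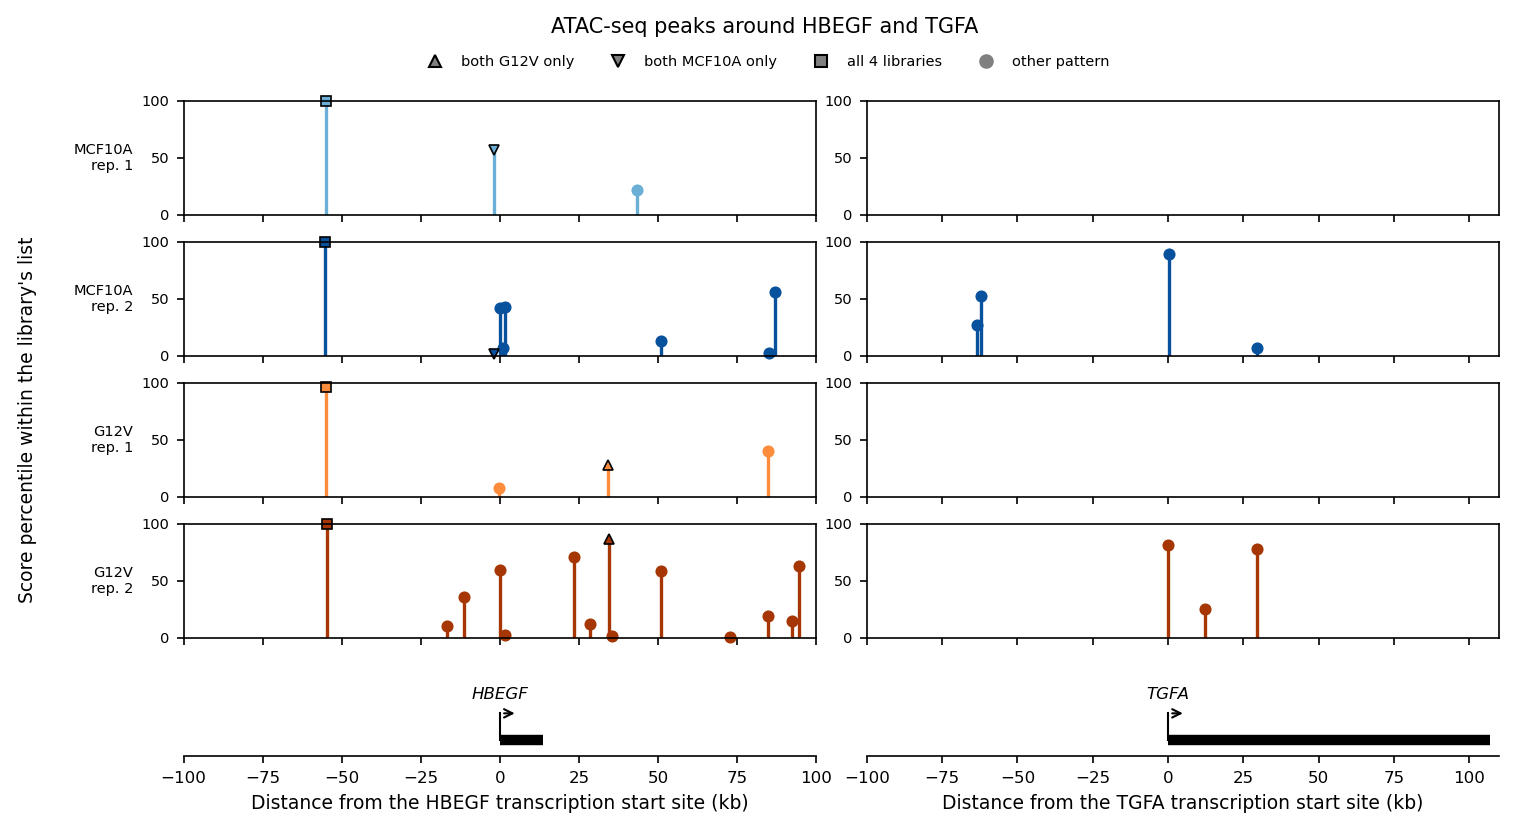
Peaks within 100 kb of the HBEGF TSS (left) and in or around TGFA (right) in the 4 libraries, by distance from the TSS in kb, positive in the direction of transcription, and score percentile within the library's list. The upward triangle marks the gained and the downward triangle the lost region, the square is the ANKHD1 promoter in all 4 libraries, and black bars are the genes. The lost peak is at percentile 57.0 in MCF10A replicate 1 and 1.30 in MCF10A replicate 2, and TGFA has no peak in either replicate 1 row.

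At the 7 gene starts, promoter peaks were found for 0 genes in MCF10A replicate 1, 4 in MCF10A replicate 2 (EGFR, BTC, HBEGF and TGFA), 2 in G12V replicate 1 (EREG and HBEGF) and 5 in G12V replicate 2. Over all protein-coding genes 20.4%, 41.1%, 22.2% and 43.8% had one in the same order. Counting every annotated transcript start gave the same numbers of genes. The count followed the replicate number in members as over the genome.

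Relative to the size of the lists, the members' windows held 0.621 and 0.783 peaks per 1000 peaks in MCF10A and 0.926 and 0.814 in G12V, or 8, 27, 13 and 38 peaks. Both G12V values were above both MCF10A values. How often windows of other genes show this order was not counted. The G12V mean was 0.870 ± 0.0789 and the MCF10A mean 0.702 ± 0.115 (SD, n = 2 each), a difference of 0.168 (exact two-sided permutation test, p = 0.333). With 2 libraries per cell type no p below 0.33 is possible, so 0.05 cannot be reached. The direction did not hold at the better-scoring 50% of each list, where the difference was -0.0164, or with windows of 250 kb, where it was -0.0704.

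By locus, the 4q13 ligands and HBEGF had higher values in both G12V libraries than in both MCF10A libraries. For 4q13 they were 0.0776 and 0.145 in MCF10A and 0.214 and 0.171 in G12V, a difference of 0.0812 between the means (exact permutation p = 0.333, Benjamini-Hochberg adjusted p = 0.667 over the 4 loci). For HBEGF they were 0.233 and 0.232 in MCF10A and 0.285 and 0.300 in G12V, a difference of 0.0600 (exact permutation p = 0.333, adjusted p = 0.667), which became -0.0134 in the better-scoring 50% of each list. The cell types overlapped at EGFR, with 0.310 and 0.290 in MCF10A and 0.427 and 0.279 in G12V (exact permutation p = 1.00, adjusted p = 1.00). At TGFA they were 0 and 0.116 in MCF10A and 0 and 0.0643 in G12V (exact permutation p = 1.00, adjusted p = 1.00). These rates rest on 1 to 14 peaks per library and locus where any were listed, and the test could not detect a difference of any size. How many windows of other genes have both G12V rates above both MCF10A rates was not counted. The order at 4q13 and HBEGF thus has no background beside it.

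**Figure D5:**
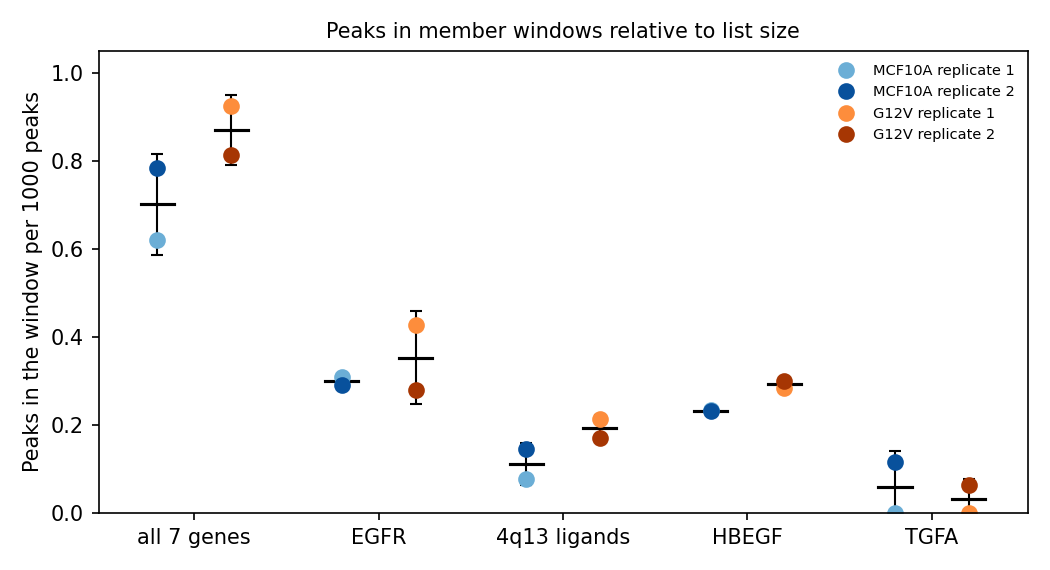
Peaks in the windows of all 7 genes and of each locus per 1000 peaks of the library. Points are libraries, horizontal bars are means and vertical bars are SD (n = 2, cut off at 0). Both G12V points lie above both MCF10A points for all 7 genes (0.926 and 0.814 against 0.621 and 0.783), for 4q13 and for HBEGF, and the points overlap at EGFR and TGFA.

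Within replicate numbers, regions were also compared as pairs. In the replicate 1 pair, 10 of 18 member regions had a peak in G12V alone and 5 in MCF10A alone, against 39.5% and 33.9% of all regions of that pair. In the replicate 2 pair, 18 of 45 were in G12V alone and 8 in MCF10A alone, that is 40% and 17.8%, against 41.7% and 19.6% of all regions. The replicate 2 pair, with the larger lists, thus had shares within a few percentage points of the background. None of the 3 shared member regions had both G12V percentiles above both MCF10A percentiles or the reverse, where 18.6% and 6.92% of all shared regions did.

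The motif content of the members was near the background. AP-1, the FOS and JUN dimer that acts downstream of RAS, matched the 150 bp window of 7 of 49 regions (14.3%, against 15.9% of all regions). These included the shared EGFR intron 1 region and the EREG intron 1 region printed above. TEAD matched 4 (8.16%, against 11.0%), ETS (ACCGGAAGT with up to 1 mismatch outside GGAA) matched 1 (2.04%, against 1.99%), p53 with up to 3 mismatches matched 1 (2.04%, against 1.26%) and grainyhead (AACCGGTT with up to 1 mismatch) matched 0 (against 1.65%). All were sought on both strands. The AP-1 motif reads nearly alike on both strands, and a site was counted once. The p53 match lay in the EGFR intron 1 region chr7:55176964-55177619, which was listed in MCF10A replicate 2 (percentile 52.1) and G12V replicate 2 (45.2) and also held AP-1. None of these motifs was found in the windows of the 4 gained regions and the lost region, which says only that these letters are not in those windows. Over the whole regions, the gained BTC region held an AP-1 and the gained HBEGF region a TEAD match outside the window, and the other 2 gained regions and the lost region held none of the 5 motifs.

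The promoter sequences differed in a further way, which was sought after the EREG sequence had been seen. TATAAA, the core of the TATA box, was present in the 50 bases before the TSS of EPGN, EREG and AREG, 29, 32 and 29 bases upstream, and absent from those of BTC, EGFR, HBEGF and TGFA. Over all protein-coding genes 3.39% had it. The match is a description of the sequence. The EGFR promoter stretch printed above had a GC content of 73.6%, and that of EREG 59.2%.

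Other genes of the ERBB pathway served as a comparison, as a list of 26 that held the other receptors, EGF and the neuregulins, the proteases and their partners, adaptors, and feedback inhibitors. At least 1 gained region lay in the window of 6 (23.1%, against 16% of protein-coding genes) and a lost region in that of 1 (3.85%, against 10%). Windows include the whole gene, and those of ERBB4 and NRG1 held 23 and 30 regions, against a median of 6 over protein-coding genes. The background shares were not matched for this. NRG2, a neuregulin that binds ERBB3 and ERBB4, had its gained region at the promoter, 301 bp upstream of the TSS, with percentiles of 66.0 and 85.1 in G12V replicates 1 and 2 and no peak in MCF10A. The NRG2 promoter limits also held a separate peak of MCF10A replicate 2, so the promoter as a whole was listed in both cell types. ERRFI1, a feedback inhibitor of EGFR, had 2 gained regions, 72080 and 84696 bp downstream of its TSS, with percentiles of 44.6 and 69.9 and of 18.8 and 0.221. The receptor gene ERBB4 also had 2, both inside the gene, with percentiles of 71.8 and 50.4 and of 26.4 and 90.2. NRG1, ERBB3 and RHBDF2, a partner of the protease ADAM17, had 1 each, with percentiles in G12V replicate 1 from 9.83 to 15.7. Those of ERBB3 and RHBDF2 lay 35007 and 26001 bp upstream of the TSS. Promoters of other genes were not looked up for the regions of this list. PLCG1, a phospholipase activated by EGFR, had the lost region, at 31.6 and 31.8 in MCF10A. By promoter, 0 of the 26 genes had a peak in the G12V libraries alone and 1 in the MCF10A libraries alone. This was PTPN11, the phosphatase SHP2 that acts in RAS signalling, with percentiles of 12.3 and 81.6 in MCF10A replicates 1 and 2. A peak of G12V replicate 2 (50.8) overlapped the same merged region just past the promoter limit, so it was not counted among the lost regions. No promoter peak was listed in any library for 7 of the 26 genes, EGF, ERBB2, ERBB3, NRG3, NRG4, RHBDF1 and SRC. Among all 20098 protein-coding genes 10118 had none. Promoters of this list were taken at the gene start alone, not at every annotated transcript.

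The genes most like EGFR, EREG, HBEGF and TGFA were found by the covered bases within 100 kb of the TSS, as parts of all covered bases of each list, over the 4 libraries and on other chromosomes. Per 1000000 covered bases EREG had 76.4 and 34.5 in MCF10A and 101 and 54.5 in G12V, and the nearest genes were TUNAR and GJE1. For EGFR they were PCYT2 and ENSG00000258864, for HBEGF FAM50A and MRPL17, and for TGFA the olfactory receptor genes OR10J1 and OR10J4. The olfactory genes share with TGFA that nothing was listed in either replicate 1 library.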

How the data were processed

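ATAC-seq had been performed on 2 libraries of MCF10A and 2 of G12V cells. According to the study's methods, the authors aligned reads with Bowtie (0.12.9, hg19), kept uniquely aligned reads, corrected read starts for the transposase and ran MACS on them (1.4.2; tag size 51, shift size 75, local window 25000 bp, p threshold 0.0001). The deposited lists, 1 per library, give positions and the MACS score, which is -10 times the log10 of each p-value. Scores rise with depth, and libraries were compared by percentiles within a list. Some scores are also given beside their percentile, or to show how near a peak lay to the lowest listed score. That limit is itself a score, so presence or absence of a peak also depends on depth. The study pooled replicates for its own calls, whereas presence or absence per library was used here.

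Only the 22 autosomes and X were used (14 to 25 Y peaks left out), and peaks were merged into regions by an overlap of at least 1 bp. Gene models were GENCODE release 44 mapped to GRCh37. Windows were the gene and 100 kb on either side of the TSS. Motifs were sought in 150 bp windows, and the uniqueness of 51-base words was counted over both strands. Rates per library were compared by exact two-sided permutation tests. All gained, lost and promoter regions of the members are named, of shared regions up to 3 per locus, and pathway genes with a gained or lost region. The members, lists and rules were chosen with earlier results of these data known, and support nothing by that choice. Replicates are biological according to the study. Replicate numbers were not stated to mark a shared day or batch, so pairs were an alternative, as were other filters, overlaps and windows. Merging, motif search and word counting were tested on simulated data. Computations used Python 3.11.15, numpy 2.4.6, pandas 2.3.3, pysam 0.24.0, samtools 1.23.1 and matplotlib 3.10.9.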

Additional observations from a re-analysis of the deposited data

How the results depend on the processing

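The counts of 4 gained, 1 lost and 3 shared member regions were the same when peaks had to overlap by 50% of the shorter one, when merging reached 200 bp, with windows at every transcript start and, chosen after seeing the data, a filled 4q13 interval. With the better-scoring 50% of each list 0 were gained and 0 lost, and with the 12888 best peaks of each library 2 were gained (HBEGF downstream and the site upstream of EGFR) and 0 lost. The site upstream of EGFR had a peak in MCF10A replicate 2 in the full list, at percentile 62.2, so its call rests on where the list was cut. The lists of the 12888 best peaks also gave 2 shared regions with both MCF10A percentiles above both G12V percentiles, against 0. With a peak in either replicate 19 were gained, 11 lost and 19 shared, and windows of 250 kb gave 6 shared. Leaving out 1 library gave 4 to 18 gained (18 without G12V replicate 1, 9 without MCF10A replicate 2), 1 to 8 lost (8 without MCF10A replicate 1, 4 without MCF10A replicate 2, 2 without G12V replicate 2) and 3 to 8 shared (8 without MCF10A replicate 1). The replicate block, each pair alone, gave 10 gained, 5 lost and 3 shared regions in pair 1 and 18, 8 and 19 in pair 2. Shares over all regions were counted for the reported classes and the pairs, not for the other settings. Counts under those settings show only how the calls moved and have no background.

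For peaks per 1000 the replicate block gave differences of 0.305 in pair 1 and 0.0307 in pair 2. Their mean, 0.168, equals the difference between the group means by construction, so only the p-value could change. The exact sign-flip p was 0.5, the smallest that 2 pairs can give, and no call changed, since none was possible. Leaving out 1 library gave 0.0865 to 0.249 for all members, -0.0217 to 0.127 for EGFR (below 0 without G12V replicate 1), 0.0474 to 0.115 for 4q13, 0.0524 to 0.0675 for HBEGF and -0.0839 to 0.0321 for TGFA (above 0 without MCF10A replicate 2 or G12V replicate 1). The difference reversed with the better-scoring 50% for all members (-0.0164), EGFR (-0.00785) and HBEGF (-0.0134), with 250 kb windows for all members (-0.0704) and EGFR (-0.0540), and for TGFA, from -0.0259, with equal lists (0.0388) and 50 kb windows (0.00312). Equal lists kept the direction for all members (0.349), EGFR (0.194), 4q13 (0.0776) and HBEGF (0.0388). Whole regions in place of windows raised matches among the 49 regions from 7 to 18 for AP-1, 4 to 18 for TEAD, 1 to 3 for p53, 1 to 2 for ETS and 0 to 2 for grainyhead. Whole-region matches were not counted over all regions, so these numbers have no background. The cause of these changes was not tested.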

Other observations

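The interval between the 4q13 windows, 209 kb from AREG towards BTC that holds AREGB, had 0, 3, 1 and 4 peaks in MCF10A replicates 1 and 2 and G12V replicates 1 and 2. Including it added no gained, lost or shared region. In the widest region of EGFR intron 1, at 114410 bp, G12V replicate 2 had 2 separate peaks, while MCF10A replicates 1 and 2 had 1 each.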
